A study of Homo sapiens with 6 samples.

Results

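The 10 genes described here are PSMB8, PSMB9 and PSMB10, PSME1 and PSME2, TAP1, TAP2 and TAPBP, B2M and NLRC5, which serve the immunoproteasome and the loading of peptides on MHC class I molecules. They were taken as the rows of the deposited count tables that carry these symbols, and all 10 were found, each with 1 identifier, among 37478 symbols. The libraries came from the human esophageal adenocarcinoma cell lines OE33 and Eso26, transfected with Lipofectamine RNAiMAX and either an siRNA against PPARG (siPPARG) or a non-silencing siRNA (control). OE33 was grown in DMEM and Eso26 in RPMI-1640, so medium and line cannot be told apart. Each of the 4 conditions has 1 sample and 1 column of counts; the series' design text speaks of triplicates, and whether a column holds 1 of them or their sum is not stated, so each was treated as 1 library without replicates. PPARG is a lipid-sensing nuclear receptor, which the study's title ties to fatty acid synthesis in this cancer.

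Cells cut proteins into peptides with the proteasome, and MHC class I molecules show a sample of these peptides to CD8 T cells. Under interferon the catalytic subunits of the constitutive proteasome, encoded by PSMB5, PSMB6 and PSMB7, are replaced in newly built particles by those encoded by PSMB8, PSMB9 and PSMB10, which changes the peptides produced. TAP1 and TAP2 form the transporter that carries peptides into the endoplasmic reticulum, TAPBP (tapasin) holds the class I molecule at the transporter, B2M is the light chain of class I, and NLRC5 is a transactivator of class I genes and of several of the genes named here.

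The total counts ran from 16866996 to 23019840 per library, and a count of 0 allows up to 3 counts, or 0.129 to 0.181 CPM (counts put on a shared library size by TMM factors over the 4 libraries). PPARG had 313 counts in OE33 siPPARG and 2156 in OE33 control, a ratio of 0.136 (interval 0.120 to 0.153). PPARG had 201 counts in Eso26 siPPARG and 259 in Eso26 control, a ratio of 0.843 with an interval of 0.698 to 1.02 that includes no change. PPARG was thus far lower in OE33 siPPARG, while a lower level was not detectable in Eso26, and Eso26 directions refer to the library labelled siPPARG. All intervals are 95% counting intervals and say nothing about the spread between cultures. All 5 epithelial markers fixed for the check (EPCAM, CDH1, KRT8, KRT18 and KRT19) were expressed in every library, with summed levels of 8543 CPM in OE33 siPPARG and 8767 in OE33 control, and 4563 CPM in Eso26 siPPARG and 4784 in Eso26 control. Immune cells carry the immunoproteasome at high levels, and the 8 immune cell markers summed to 5.73 CPM in OE33 siPPARG and 5.0 in OE33 control, and to 0.749 CPM in Eso26 siPPARG and 0.819 in Eso26 control. Of these 8 markers 3 to 7 were at 0 in each library, and the T cell marker CD3E and the B cell marker MS4A1 were at 0 in all 4. Most of the immune sum in OE33 was CD14, with 94 counts in siPPARG and 83 in control. The 6 mesenchymal markers summed to between 3.68 and 8.20 CPM.

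In OE33 all 10 genes were higher with siPPARG than with control, by 1.25-fold (PSME1) to 2.07-fold (NLRC5), and every counting interval lay above 1. The share of all genes with such an interval was not computed. Other intervals excluded 1 too: of 18 genes of the proteasome's 19S cap, 1 interval lay above 1 and 7 lay below it. Of all 10526 genes kept at 5 CPM or more in 1 of the 2 libraries, 48.7% were higher by any amount, 3.25% were higher past 1.5-fold and 1.05% past 2-fold. Of the 10 genes, all of which were kept, 6 were higher past 1.5-fold (NLRC5, PSMB9, TAP1, TAP2, PSMB10 and B2M) and 1 past 2-fold (NLRC5). The median log2 fold was 0.62 over the 10 genes and -0.0076 over all kept genes. These are ratios in single libraries of bulk RNA, in which more expressing cells and more RNA per cell cannot be told apart, and neither can loss of PPARG and a response to the siRNA itself.

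**Figure D1:**
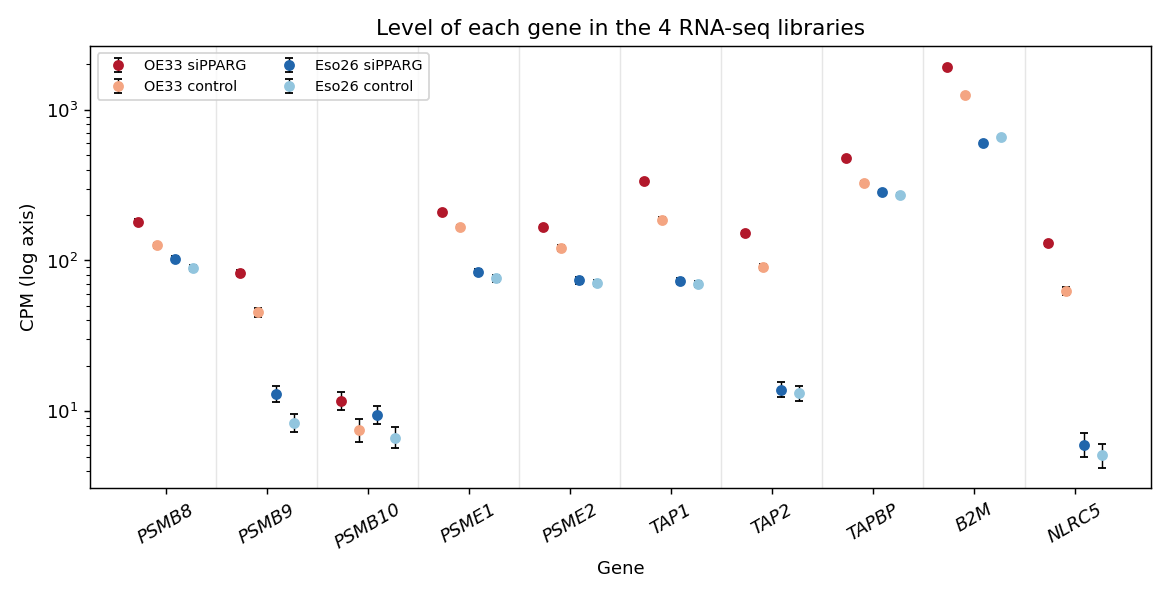
Level of each of the 10 genes in CPM (log axis) in OE33 siPPARG, OE33 control, Eso26 siPPARG and Eso26 control; points are single libraries and bars are 95% Poisson counting intervals. The OE33 siPPARG point is the highest for every gene, and NLRC5, TAP2 and PSMB9 show the widest gap between the lines.

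Among the catalytic subunits, PSMB9 (ENSG00000240065, also LMP2, which takes the place of PSMB6) had 1456 counts in OE33 siPPARG and 751 in OE33 control, against 277 in Eso26 siPPARG and 194 in Eso26 control. It was 1.81-fold higher with siPPARG in OE33 (interval 1.66 to 1.98) and 1.55-fold higher in Eso26 (interval 1.29 to 1.87). PSMB9 was thus higher with siPPARG in both lines, and both OE33 libraries stood above both Eso26 libraries. PSMB8 (ENSG00000204264, LMP7, which takes the place of PSMB5) had 3191 counts in OE33 siPPARG and 2089 in OE33 control, 1.43-fold higher (interval 1.35 to 1.51), and 2198 counts in Eso26 siPPARG and 2078 in Eso26 control, 1.15-fold higher after scaling (interval 1.08 to 1.22). PSMB10 (ENSG00000205220, MECL-1, which takes the place of PSMB7) was the member with the fewest counts in OE33, with 207 in siPPARG and 124 in control, 1.56-fold higher (interval 1.24 to 1.97). In Eso26 PSMB10 had 203 counts in siPPARG and 155 in control, 1.42-fold higher (interval 1.15 to 1.77). The 3 catalytic genes were therefore higher with siPPARG in both lines, with the counting interval above 1 each time. The share of all genes with such intervals was not computed. By log2 fold in Eso26, PSMB9 lay above 99% of kept genes, PSMB10 above 97.9% and PSMB8 above 82.6%.

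The constitutive counterparts lay close to their control levels. PSMB5 stood at 0.952 times the control in OE33 (interval 0.889 to 1.02) and 0.996 in Eso26 (interval 0.931 to 1.07). PSMB6 stood at 0.938 in OE33 (interval 0.854 to 1.03) and 1.02 in Eso26 (interval 0.952 to 1.10), and PSMB7 at 1.07 in OE33 (interval 1.02 to 1.13) and 1.0 in Eso26 (interval 0.960 to 1.05). The ratio of an immunoproteasome gene to its counterpart within a library is free of library scaling, and its change between libraries is free of gene length.

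The count ratio of PSMB9 to PSMB6 was 1.64 in OE33 siPPARG and 0.850 in OE33 control, a change of 1.93 (interval 1.70 to 2.20). The same ratio was 0.188 in Eso26 siPPARG and 0.124 in Eso26 control, a change of 1.52 (interval 1.24 to 1.86). PSMB9 thus gained on PSMB6 in both lines from very different starting ratios, with the OE33 control 6.84 times the Eso26 control (interval 5.70 to 8.21). PSMB8 to PSMB5 was 1.91 in OE33 siPPARG and 1.27 in OE33 control, a change of 1.5 (interval 1.37 to 1.64), and 1.32 in Eso26 siPPARG and 1.14 in Eso26 control, a change of 1.15 (interval 1.05 to 1.26). PSMB10 to PSMB7 was 0.0582 in OE33 siPPARG and 0.0401 in OE33 control, a change of 1.45 (interval 1.15 to 1.84), and 0.050 in Eso26 siPPARG and 0.0352 in Eso26 control, a change of 1.42 (interval 1.14 to 1.77). All 6 intervals of siPPARG against control lay above 1. How often the ratio of other gene pairs has such an interval was not computed. Between the controls, PSMB8 to PSMB5 differed 1.11-fold (interval 1.02 to 1.22) and PSMB10 to PSMB7 1.14-fold (interval 0.886 to 1.46), so that of the 3 ratios that of PSMB9 to PSMB6 set the lines furthest apart.

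**Figure D2:**
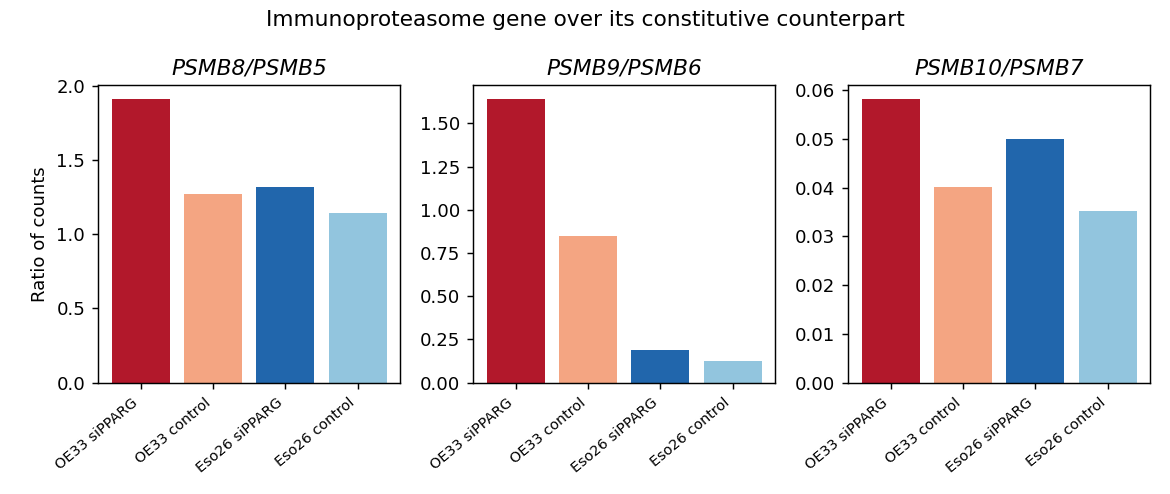
Ratio of the counts of each immunoproteasome catalytic gene to those of its constitutive counterpart in each library, 1 panel per pair with its own axis from 0; bars are single libraries. In each panel the siPPARG bar stands above the control bar of the same line, and in the PSMB9/PSMB6 panel both OE33 bars stand far above the Eso26 bars.

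PSME1 and PSME2 encode the alpha and beta subunits of PA28, the interferon-inducible cap that opens the proteasome core. PSME1 (ENSG00000092010) had 3701 counts in OE33 siPPARG and 2766 in OE33 control, 1.25-fold higher (interval 1.19 to 1.31), the smallest ratio of the 10 genes in that line. It had 1779 counts in Eso26 siPPARG and 1762 in Eso26 control, 1.10-fold higher (interval 1.03 to 1.17). PSME2 (ENSG00000100911) had 2940 counts in OE33 siPPARG and 2007 in OE33 control, 1.37-fold higher (interval 1.29 to 1.45), while in Eso26 its 1573 counts in siPPARG and 1649 in control gave a ratio of 1.04 (interval 0.967 to 1.11). PSME3, whose product forms the related nuclear cap, stood at 1.15 times the control in OE33 (interval 1.10 to 1.20) and 0.946 in Eso26 (interval 0.916 to 0.977). The ratio of PSME1 to PSME3 changed by 1.09 in OE33 (interval 1.02 to 1.17) and by 1.16 in Eso26 (interval 1.08 to 1.25), and that of PSME2 to PSME3 by 1.20 in OE33 (interval 1.11 to 1.28) and 1.10 in Eso26 (interval 1.01 to 1.18). The cap genes thus gained less on PSME3 in OE33 than PSMB9 did on PSMB6.

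The transporter genes were among the larger differences in OE33 and were nearly level in Eso26. TAP1 (ENSG00000168394) had 5919 counts in OE33 siPPARG and 3094 in OE33 control, 1.79-fold higher (interval 1.71 to 1.87), and 1560 counts in Eso26 siPPARG and 1614 in Eso26 control, a scaled ratio of 1.05 (interval 0.979 to 1.13). TAP2 (ENSG00000204267) had 2670 counts in OE33 siPPARG and 1504 in OE33 control, 1.66-fold higher (interval 1.56 to 1.77), and 296 counts in Eso26 siPPARG and 305 in Eso26 control, a ratio of 1.05 (interval 0.896 to 1.24). TAP1 and TAP2 therefore stood higher with siPPARG in OE33, while a difference in Eso26 was not detectable at this depth. TAPBP (ENSG00000231925) had 8430 counts in OE33 siPPARG and 5435 in OE33 control, 1.45-fold higher (interval 1.40 to 1.5), and 6069 counts in Eso26 siPPARG and 6318 in Eso26 control, 1.04-fold higher after scaling (interval 1.01 to 1.08). Its OE33 siPPARG library stood clearly apart from the other 3, whose levels lay between 272 and 328 CPM.

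B2M (ENSG00000166710) was the most counted of the 10 genes, with 33976 counts in OE33 siPPARG and 20717 in OE33 control, 1.53-fold higher (interval 1.51 to 1.56). In Eso26 it had 12933 counts in siPPARG and 15202 in control, a ratio of 0.925 (interval 0.903 to 0.947), and it was the 1 gene of the 10 that was lower there. NLRC5 (ENSG00000140853) had 2290 counts in OE33 siPPARG and 1034 in OE33 control, 2.07-fold higher (interval 1.92 to 2.23) and above 99.1% of all kept genes. In Eso26 NLRC5 was near the expression filter, with 128 counts in siPPARG and 118 in control, a ratio of 1.18 (interval 0.911 to 1.53). Together the 10 genes took 0.357% of all counts in OE33 siPPARG and 0.234% in OE33 control, and 0.132% in Eso26 siPPARG and 0.128% in Eso26 control. Without B2M their summed level was 1748 CPM in OE33 siPPARG and 1134 in OE33 control, and 660 CPM in Eso26 siPPARG and 612 in Eso26 control.

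**Figure D3:**
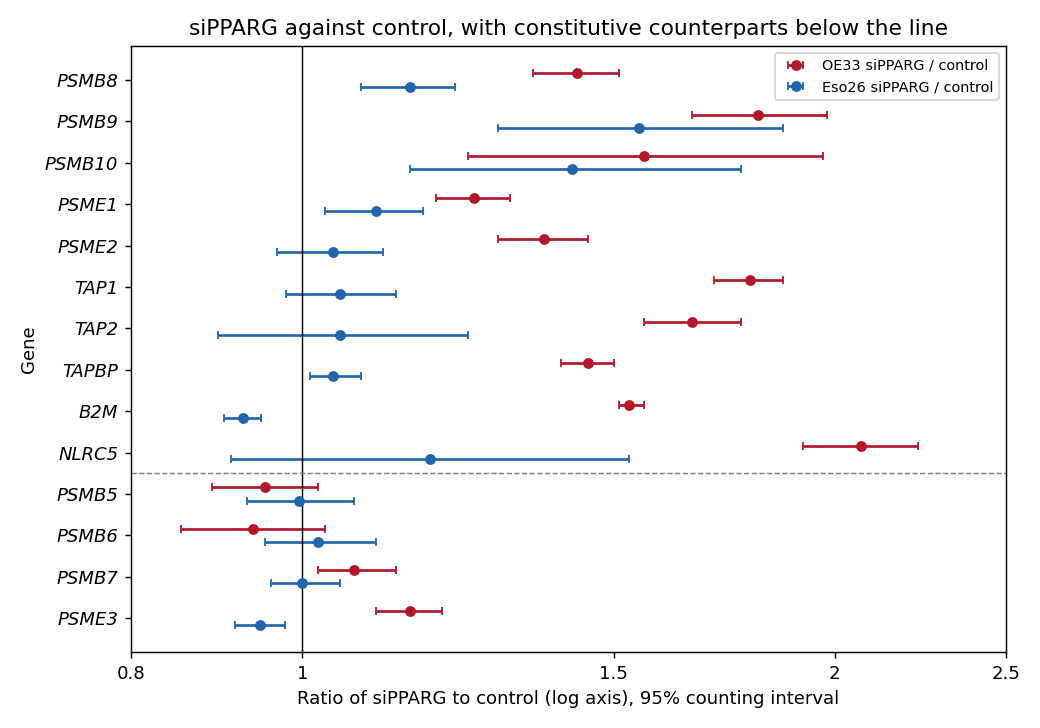
Ratio of siPPARG to control (log axis) for the 10 genes in OE33 (red, upper of each pair) and Eso26 (blue). Below the dashed line are the constitutive counterparts PSMB5, PSMB6 and PSMB7 and the related cap gene PSME3. Bars are 95% counting intervals of single-library ratios. All 10 genes lie above 1 in OE33, while in Eso26 PSMB9 and PSMB10 lie furthest above 1 and B2M lies below it.

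In Eso26 as a whole 9 of the 10 genes were higher in the library labelled siPPARG and 1 was lower, where 48.6% of 10442 kept genes were higher and 51.4% lower. Of the 10 genes, 1 (PSMB9) was higher past 1.5-fold against 1.25% of kept genes, and 0 were past 2-fold against 0.0575%. The counting interval lay above 1 for 5 genes (PSMB8, PSMB9, PSMB10, PSME1 and TAPBP) and below 1 for B2M. It included 1 for PSME2, TAP1, TAP2 and NLRC5. The share of all kept genes with intervals that exclude 1 was not computed. Of 18 genes of the 19S cap, 2 intervals lay above 1 and 8 lay below it. Calls close to 1 turned on the scaling: with RLE factors TAPBP stood at 1.03 (interval 0.994 to 1.07), and without a scaling factor TAP1 stood at 1.08 (interval 1.01 to 1.16). The median log2 fold was 0.11 over the 10 genes and -0.0073 over all kept genes.

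The siPPARG ratio in OE33 was divided by that in Eso26 to set the lines side by side, with a log-normal counting interval. It was 1.76 for NLRC5 (interval 1.35 to 2.28), 1.70 for TAP1 (interval 1.57 to 1.85), 1.66 for B2M (interval 1.61 to 1.71) and 1.57 for TAP2 (interval 1.32 to 1.87). It was 1.39 for TAPBP (interval 1.32 to 1.46), 1.32 for PSME2 (interval 1.21 to 1.44), 1.24 for PSMB8 (interval 1.14 to 1.35) and 1.14 for PSME1 (interval 1.05 to 1.24). For PSMB9 it was 1.17 (interval 0.953 to 1.43) and for PSMB10 1.10 (interval 0.808 to 1.49), both including 1. By counting error alone, then, the OE33 ratio was the larger for 8 of the 10 genes and could not be set apart for PSMB9 and PSMB10. The related cap gene PSME3 stood at 1.21 (interval 1.15 to 1.28) and the constitutive PSMB7 at 1.07 (interval 1.0 to 1.14). PSMB5 stood at 0.956 (interval 0.869 to 1.05) and PSMB6 at 0.916 (interval 0.815 to 1.03). The share of all genes with such an interval above 1 was not computed. With 1 library per line and condition the difference between the lines has no test across cultures.

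**Figure D4:**
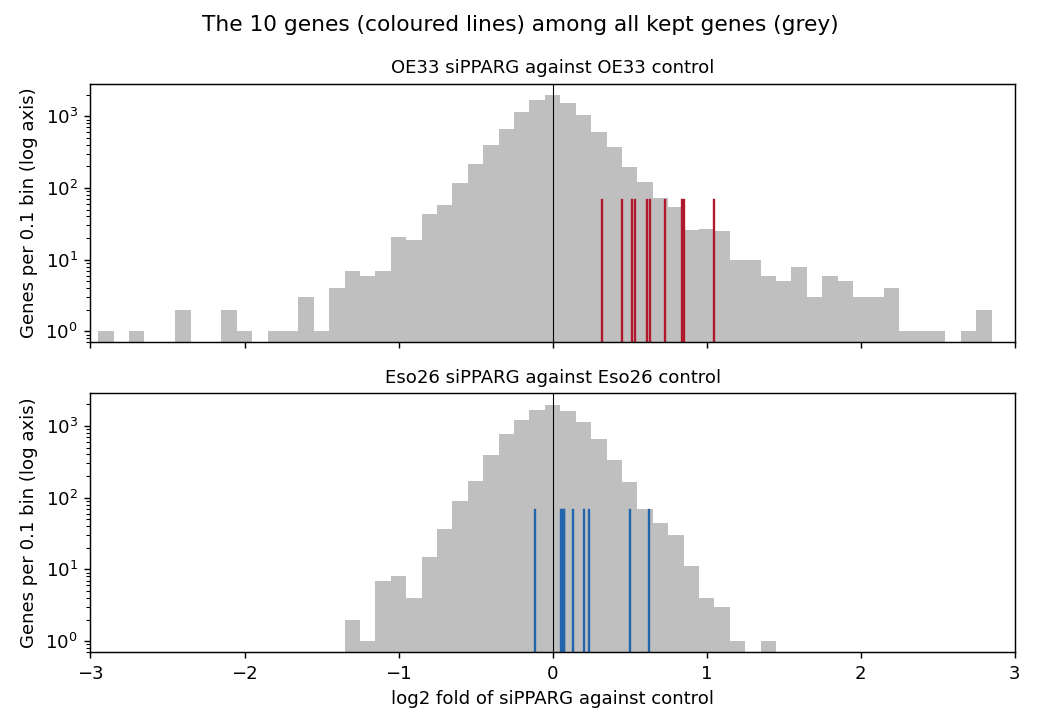
Histogram of the log2 fold of siPPARG against control over all kept genes (grey, log axis, bins of 0.1) in OE33 (upper panel) and Eso26 (lower panel), with the 10 genes as coloured lines. In OE33 the lines run from 0.32 to 1.05, right of the centre; in Eso26 they run from -0.11 to 0.63 and most lie within the bulk.

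With the non-silencing siRNA the 2 lines already differed in these genes. All 10 were higher in OE33 control than in Eso26 control, 9 of them with a counting interval above 1, 7 past 1.5-fold and 5 past 2-fold. Such differences were common between the lines, with 50.9% of 11210 kept genes higher in OE33 control by any amount, 31.8% past 1.5-fold and 21.5% past 2-fold. The median log2 difference was 1.03 over the 10 genes and 0.028 over all kept genes. How many of all kept genes had a counting interval above 1 was not computed. Of 18 genes of the 19S cap, 9 intervals lay above 1 and 9 lay below it.

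NLRC5 stood at 62.3 CPM in OE33 control and 5.09 in Eso26 control, 12.3-fold higher (interval 10.1 to 15). TAP2 stood at 90.7 CPM in OE33 control and 13.1 in Eso26 control, 6.90-fold higher (interval 6.10 to 7.83), and PSMB9 at 45.3 CPM in OE33 control and 8.36 in Eso26 control, 5.42-fold higher (interval 4.62 to 6.38). TAP1 was 2.68-fold higher (interval 2.52 to 2.85) and PSME1 2.20-fold higher (interval 2.07 to 2.33) in OE33 control. Under 2-fold were B2M at 1.91-fold (interval 1.87 to 1.95), PSME2 at 1.70-fold (interval 1.59 to 1.82), PSMB8 at 1.41-fold (interval 1.32 to 1.5) and TAPBP at 1.20-fold (interval 1.16 to 1.25). PSMB10 stood at 7.48 CPM in OE33 control and 6.68 in Eso26 control, a ratio of 1.12 with an interval of 0.877 to 1.43 that includes no difference. Other core subunits were mixed: PSMB5 was 1.26-fold higher in OE33 control (interval 1.18 to 1.35), PSMB7 stood at 0.985 (interval 0.940 to 1.03) and PSMB6 at 0.792 (interval 0.729 to 0.861). All 10 kept genes of the remaining 20S particle were lower in OE33 control, at a median log2 difference of -0.79, and 6 were lower past 1.5-fold, against 27.5% of all kept genes; PSMA6 among them was kept through Eso26 control alone.

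Ordering the 4 libraries by level gave OE33 siPPARG, OE33 control, Eso26 siPPARG and Eso26 control for 8 of the 10 genes. The share of all genes with this order, or with separate intervals, was not computed, so how common either is remains unknown. Neighbours in the order of levels had separate counting intervals throughout for PSMB8 and PSMB9. For PSME1, PSME2, TAP1, TAP2, TAPBP and NLRC5 the intervals of the 2 Eso26 libraries overlapped. B2M had the Eso26 libraries in the other order, with all neighbours separate. PSMB10 alone interleaved the lines (11.8 CPM in OE33 siPPARG, 9.51 in Eso26 siPPARG, 7.48 in OE33 control and 6.68 in Eso26 control), and each neighbouring pair overlapped.

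A fit of cell line and treatment over the 4 libraries leaves 1 residual degree of freedom and allows a test of what both lines share. For treatment, none of the 10 genes passed an adjusted p of 0.05 by edgeR's quasi-likelihood test, which called 0 (0%) of 13702 genes and gave 633 an unadjusted p under 0.05. DESeq2 called 12 genes (0.0876%), none of them among the 10, and limma-voom 0, with 650 at an unadjusted p under 0.05. PSMB9 had the smallest p of the 10 genes, with a common log2 fold of 0.77, higher with siPPARG in 2 of 2 lines, an unadjusted p of 0.00119 and an adjusted p of 0.588 by edgeR. For the other genes the adjusted p was 0.992 by edgeR, with common log2 folds from 0.24 (PSME1) to 0.74 (NLRC5). The residual of this fit is the unequal difference in the lines.

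The line term compares both OE33 libraries (siPPARG and control) with both Eso26 libraries. Its p-values do not measure the spread between cultures of the same condition, and medium cannot be told apart from line. For this term edgeR's quasi-likelihood test called 9 of the 10 genes, all 9 higher in OE33. Of all genes tested, 70.2% were called and 35.3% were called as higher in OE33. The log2 differences by edgeR ran from 0.49 for TAPBP (adjusted p = 0.0204) to 4.02 for NLRC5 (adjusted p = 8.84e-06). TAP2 differed by 3.10 (adjusted p = 1.34e-05 by edgeR) and PSMB9 by 2.54 (adjusted p = 1.16e-05 by edgeR). PSMB10, with a log2 difference of 0.22, was not called (adjusted p = 0.340 by edgeR). DESeq2 also called 9 of the 10, all higher in OE33, against 57.8% of all genes called and 29.5% called as higher there, and limma-voom 9 of the 10, against 70.1% and 35.2%.

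Other genes of antigen presentation were set beside these. Of the 4 kept class I heavy chain genes reported here (HLA-B, HLA-C, HLA-E and HLA-F, which present the peptides), 4 were higher with siPPARG in OE33, at a median log2 fold of 0.77, and 3 exceeded 1.5-fold. HLA-F was 2.39-fold higher (interval 2.21 to 2.60), HLA-B 1.82-fold (interval 1.79 to 1.86) and HLA-E 1.59-fold (interval 1.54 to 1.64). HLA-C differed less in OE33, at 1.16 (interval 1.14 to 1.19), and stood at 1.19 in Eso26 (interval 1.13 to 1.26). In Eso26 the same 4 were higher with a median log2 fold of 0.22 and 0 past 1.5-fold, so that HLA-E stood at 1.21 (interval 1.14 to 1.28) beside B2M at 0.925. These genes resemble each other, and the counting of reads that match several of them is not described in the labels.

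Of 6 partners that trim peptides or assemble class I in the endoplasmic reticulum, 6 were higher in OE33 siPPARG, with a median log2 fold of 0.42 and 1 gene past 2-fold. TAPBPL, the tapasin relative that edits peptides, was 2.06-fold higher (interval 1.63 to 2.63), the chaperone gene CALR 1.39-fold (interval 1.36 to 1.42) and the trimming peptidase gene ERAP1 1.36-fold (interval 1.29 to 1.44). In Eso26 2 of the 6 were higher and 4 lower, with a median log2 fold of -0.11 and ERAP1 at 0.820 (interval 0.748 to 0.899).

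The rest of the proteasome differed by less than 1.5-fold in both lines, in both directions. Of 18 genes of the 19S cap, 1 was higher and 17 lower in OE33 siPPARG, at a median log2 fold of -0.082 and 0 past 1.5-fold, and of 10 kept genes of the other 20S subunits 3 were higher and 7 lower (median -0.044). The largest differences were those of PSMD14 (0.769, interval 0.724 to 0.817), PSMD7 (0.810, interval 0.762 to 0.862) and PSMD2 (0.817, interval 0.791 to 0.844). In Eso26 the medians were -0.056 for the 19S cap and -0.025 for the other 20S subunits, where PSMA6 stood at 0.760 (interval 0.602 to 0.958), PSMA1 at 0.869 (interval 0.774 to 0.975) and PSMB2 at 0.904 (interval 0.873 to 0.936). Some were higher in Eso26 siPPARG, among them PSMD8 at 1.21 (interval 1.13 to 1.3), PSMB4 at 1.09 (interval 1.05 to 1.13) and PSMB3 at 1.08 (interval 1.06 to 1.10), named after their values were seen. PSMA6 was kept in OE33 through the siPPARG library alone. Of 8 other activators, inhibitors and assembly factors, 5 were higher in each line, with medians of 0.085 in OE33 and 0.068 in Eso26. PSME4, whose product is the cap PA200, was lower in both lines, at 0.788 in OE33 (interval 0.751 to 0.827) and 0.847 in Eso26 (interval 0.814 to 0.882), and PSMG4 stood at 1.15 in OE33 (interval 0.940 to 1.40).

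**Figure D5:**
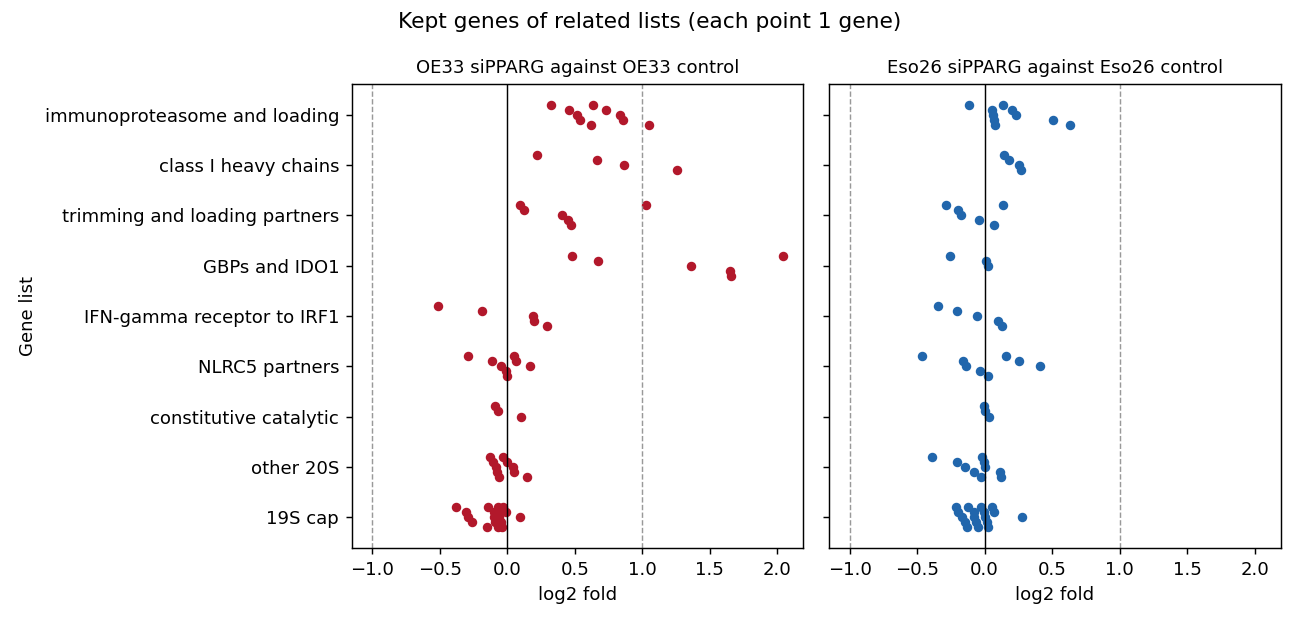
Log2 fold of siPPARG against control for the kept genes of the 10-gene group and of related lists, in OE33 (left) and Eso26 (right); each point is 1 gene, vertical offsets are only for legibility, and dashed lines mark 2-fold. In OE33 the immunoproteasome, class I, trimming and GBP groups lie right of 0. Constitutive and other 20S genes lie close to 0 on both sides, and 17 of 18 genes of the 19S cap lie left of 0. No CXCR3 ligand gene was kept, and the rightmost point, GBP5, was kept through OE33 siPPARG alone.

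Among the regulators, STAT2, a factor of type I interferon signalling, had 1948 counts in OE33 siPPARG and 849 in OE33 control, and 516 in Eso26 siPPARG and 544 in Eso26 control. It was 2.14-fold higher in OE33 (interval 1.98 to 2.33) and at 1.03 in Eso26 (interval 0.912 to 1.17). IRF1, a direct activator of PSMB9 and TAP1, was 1.14-fold higher in OE33 (interval 1.06 to 1.23) and at 1.09 in Eso26 (interval 0.987 to 1.21). The kinase gene JAK1 stood at 0.879 in OE33 (interval 0.853 to 0.906) and 0.870 in Eso26 (interval 0.838 to 0.903). The receptor chain genes went apart in OE33, with IFNGR1 at 1.23 (interval 1.19 to 1.27) and IFNGR2 at 0.699 (interval 0.652 to 0.749). Over the 5 kept genes reported here that run from the interferon gamma receptor to IRF1, 3 were higher and 2 lower in OE33 (median log2 fold 0.19), and 2 higher and 3 lower in Eso26 (median -0.054). The 4 kept genes of the type I receptor and its factor complex had medians of 0.14 in OE33 and -0.0062 in Eso26. In that list IFNAR1 stood at 1.11 in OE33 (interval 1.04 to 1.18) and 0.866 in Eso26 (interval 0.813 to 0.923), and TYK2 at 1.02 in OE33 (interval 0.938 to 1.11) and 1.14 in Eso26 (interval 1.02 to 1.28).

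NLRC5 acts on class I promoters with the RFX complex, factors of the CREB and ATF1 family and NF-Y, and none of 8 genes for these partners (RFX5, RFXAP, RFXANK, CREB1, ATF1, NFYA, NFYB and NFYC) was past 1.5-fold in either line. RFX5 stood at 1.04 in OE33 (interval 0.967 to 1.13), CREB1 at 1.03 (interval 0.964 to 1.11), RFXAP at 0.969 (interval 0.740 to 1.27) and RFXANK at 0.998 (interval 0.861 to 1.16), beside NLRC5 at 2.07. In Eso26 RFXANK stood at 1.33 (interval 1.15 to 1.54), RFX5 at 1.12 (interval 1.03 to 1.20), RFXAP at 0.976 (interval 0.80 to 1.19) and CREB1 at 0.725 (interval 0.680 to 0.774), while NFYA stood at 0.816 in OE33 (interval 0.736 to 0.905). The list's medians were -0.0054 in OE33 and -0.0056 in Eso26. Guanylate-binding protein genes and IDO1 are classic interferon gamma targets. In OE33 GBP1 was 3.17-fold higher with siPPARG (interval 2.79 to 3.60), IDO1 3.2-fold (interval 2.51 to 4.11), GBP4 2.60-fold (interval 2.07 to 3.28), GBP3 1.60-fold (interval 1.5 to 1.70) and GBP2 1.40-fold (interval 1.25 to 1.57). GBP5, which passed the filter through the siPPARG library alone, had 196 counts in OE33 siPPARG and 43 in OE33 control. The CXCR3 ligand genes of the same list were not kept: in OE33 CXCL9 had 0 counts in both libraries, CXCL10 had 1 in siPPARG and 0 in control, and CXCL11 had 6 in siPPARG and 1 in control. In Eso26 GBP1 stood at 1.01 (interval 0.831 to 1.22), GBP2 at 1.02 (interval 0.888 to 1.17) and GBP3 at 0.836 (interval 0.779 to 0.896), while GBP5 and IDO1 had 0 counts in both libraries. CXCL10 had 12 counts in Eso26 siPPARG and 32 in Eso26 control, a ratio of 0.408 (interval 0.191 to 0.813), and CXCL11 had 18 in Eso26 siPPARG and 28 in Eso26 control. Of this list the genes other than GBP1, GBP5 and IDO1 were named after their values were seen.

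Promoter sequence was used for 9 of the 10 genes (NLRC5 was not analysed here) and is shown because these genes differed together in OE33. The 250 bases before the outermost start of each gene were read from RefSeq (GRCh38.p14, a later build than the hg19 named for the deposited files) and searched on both strands. The core of the interferon-stimulated response element (ISRE), GAAA and GAAA with 2 bases between them, was present in 6 of the 9 (PSMB10, PSME2, TAP1, TAP2, TAPBP and B2M), and in 3.02% of all 35116 promoter windows. The NF-kB motif, GGG and TTTCC with 2 bases between them, was present in 3 of the 9 (TAP1, TAPBP and B2M) and in 1.73% of windows. Neither motif was in the windows of PSMB8, PSMB9 and PSME1. The PSMB9 window stops short of the ISRE cores and NF-kB motif of TAP1, which lie in the 487 bases between the starts of both genes. In the sequences, given 5′ to 3′ on the gene's strand, capitals mark ISRE cores and NF-kB motifs, which do not overlap each other here.

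The first 4 are the last 100 bases before the start of genes with an ISRE core close to it, at chr16:67936851-67936950 (PSMB10), chr14:24146611-24146710 (PSME2), chr6:32838740-32838839 (TAP2) and chr6:33314079-33314178 (TAPBP), all on the minus strand.
PSMB10: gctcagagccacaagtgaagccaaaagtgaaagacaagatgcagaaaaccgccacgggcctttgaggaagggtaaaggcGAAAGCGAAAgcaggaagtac
PSME2: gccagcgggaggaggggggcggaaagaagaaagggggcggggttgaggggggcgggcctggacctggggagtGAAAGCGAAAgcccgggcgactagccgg
TAP2: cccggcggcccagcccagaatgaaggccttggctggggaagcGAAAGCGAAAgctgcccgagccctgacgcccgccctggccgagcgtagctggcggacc
TAPBP: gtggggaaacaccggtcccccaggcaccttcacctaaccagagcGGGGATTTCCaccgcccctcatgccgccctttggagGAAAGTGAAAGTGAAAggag

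The next 3 are whole 250-base windows. B2M (chr15:44711267-44711516, plus strand) carries 2 overlapping ISRE cores beside an NF-kB motif. TAP1 (chr6:32853705-32853954, minus strand) and PSMB9 (chr6:32853942-32854191, plus strand) are transcribed away from each other with 487 bases between their starts, so their windows meet in the middle.
B2M: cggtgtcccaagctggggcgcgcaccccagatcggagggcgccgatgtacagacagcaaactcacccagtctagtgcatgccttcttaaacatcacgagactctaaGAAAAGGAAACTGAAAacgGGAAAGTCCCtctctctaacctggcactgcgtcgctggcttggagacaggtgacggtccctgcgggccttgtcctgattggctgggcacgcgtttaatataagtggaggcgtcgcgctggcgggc
TAP1: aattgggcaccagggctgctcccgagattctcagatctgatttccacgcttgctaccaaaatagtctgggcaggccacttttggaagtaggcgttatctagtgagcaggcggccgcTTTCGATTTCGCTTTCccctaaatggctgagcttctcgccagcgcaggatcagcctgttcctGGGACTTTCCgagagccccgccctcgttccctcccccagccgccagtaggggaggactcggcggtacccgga
PSMB9: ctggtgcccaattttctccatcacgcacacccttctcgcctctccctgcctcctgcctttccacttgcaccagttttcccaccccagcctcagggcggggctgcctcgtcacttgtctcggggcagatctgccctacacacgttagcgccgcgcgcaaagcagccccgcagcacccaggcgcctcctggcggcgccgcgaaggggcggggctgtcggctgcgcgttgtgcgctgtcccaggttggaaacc

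The same letters, GAAAGCGAAA, formed the ISRE core of PSMB10, PSME2 and TAP2 and, on the opposite strand, 1 of the 2 overlapping cores of TAP1. This core, singled out after the matches were seen, was in 28 of the 35116 windows (0.0797%). By number of bases before the start, these letters began at 21 in PSMB10, 28 in PSME2, 58 in TAP2 and 128 in TAP1. The ISRE cores with other letters began at 20 and 14 in TAPBP, at 134 in TAP1 and at 144 and 138 in B2M. The 6 genes with an ISRE core in their windows were 1.37-fold (PSME2) to 1.79-fold (TAP1) higher in OE33 siPPARG. The 3 with none in their windows were 1.25-fold (PSME1), 1.43-fold (PSMB8) and 1.81-fold (PSMB9) higher. PSMB9 cannot be taken as lacking a core, since those of TAP1 lie between the starts of both genes, beyond the PSMB9 window. With PSMB9 set aside the ranges still overlap, with PSMB8 at 1.43-fold and PSME2 at 1.37-fold. Whether the ratios go with the cores was not tested. The CCAAT box, written CCAAT, was present in 3 of the 9 (PSMB9, TAP1 and B2M, of which PSMB9 and TAP1 share the same 5 bases where their windows overlap) and in 32.0% of windows, and the GC box GGGCGG in 6 of the 9 and 42.6% of windows. The cAMP response element TGACGTCA was in 0 of the 9 and 1.65% of windows, and the PPAR-RXR element, AGGTCA and AGGTCA with 1 base between them, in 0 and 0.0171%. These are matches of letters in short windows and say nothing of binding.

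In RefSeq order TAP2, PSMB8, TAP1 and PSMB9 follow each other on chromosome 6, within the MHC, and PSME1 and PSME2 lie near each other on chromosome 14. TAPBP is also on chromosome 6, B2M on chromosome 15, and PSMB10 and NLRC5 on chromosome 16. The antisense RNA gene PSMB8-AS1 overlaps both PSMB8 and TAP1 in RefSeq, and, with no strand setting stated for the counting, its reads cannot be told apart from theirs. Its own row held 162 counts in OE33 siPPARG and 56 in OE33 control, and 16 in Eso26 siPPARG and 25 in Eso26 control, beside 3191 for PSMB8 and 5919 for TAP1 in OE33 siPPARG. The end of TAPBP overlaps RGL2, which had 1221 counts in OE33 siPPARG and 1273 in OE33 control. A processed copy of PSME2, PSME2P2, held 12 to 18 counts in each library.

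Over the 4 libraries, the gene whose centred log2 CPM lay nearest the mean profile of the 10 genes was GOLGA7B, at a Euclidean distance of 0.0714 among 11371 genes, followed by R3HCC1 (0.0961), AMPD3 (0.109), PLSCR1 (0.124) and CCDC71L (0.124). PLSCR1, an interferon-induced phospholipid scramblase gene, was 1.54-fold higher with siPPARG in OE33 (interval 1.49 to 1.60), at 1.01 in Eso26 (interval 0.955 to 1.07), and 2.47-fold higher in OE33 control than in Eso26 control (interval 2.35 to 2.59). GOLGA7B was 1.59-fold higher in OE33 (interval 1.42 to 1.79), at 1.18 in Eso26 (interval 0.984 to 1.42) and 2.80-fold higher between the controls (interval 2.38 to 3.30). Of the 10 genes themselves, TAP1 lay nearest their mean profile, at 0.232, and NLRC5 farthest, at 2.38. A likeness over 4 libraries is a description of these libraries.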

How the data were processed

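RNA-seq was analysed in 4 libraries of human cell lines, 1 per line and condition. The authors deposited raw read counts per gene (whole numbers, headed as read counts per the file headers). STAR, Trim Galore, Picard, Bowtie, MACS2 and the build hg19 are named, without roles, per the submitters' processing notes. Which counter, strand setting and annotation were used is not stated in the labels. The tables have 37533 rows; 40 repeat an identifier and were summed, and identifiers sharing a symbol were summed. The PPARG peak lists were not used, since no hg19 annotation was at hand to place them.

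Scaling used TMM factors from edgeR 4.0.16 in R 4.3.3, over the 2 libraries of a line for siPPARG against control, and over all 4 for CPM levels and for the controls. Log2 folds are differences of log2 CPM with a prior count of 2, and genes at 5 CPM or more in 1 of the libraries compared were kept. The fit of line and treatment instead used edgeR's own expression filter, grouped by line, which left 13702 genes. Ratios carry exact conditional binomial intervals, levels exact Poisson intervals, and ratios of subunits exact conditional odds ratio intervals, all at 95% and for counting error only. With 1 library per condition there is no test within a line. The fit of line and treatment used edgeR's quasi-likelihood test with Benjamini-Hochberg adjustment over all genes; DESeq2 1.42.0 and limma 3.58.1 were alternatives, and a p-value measures only the spread among these libraries.

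The members and lists were chosen with earlier results of these data known. Named genes were PPARG, the 10 genes, PSMB5, PSMB6, PSMB7, PSME3, IRF1, JAK1, RFX5, RFXAP and RFXANK, up to 3 kept genes of each other list, ranked by absolute log2 fold in any 1 line, and the 5 genes of nearest profile. Some genes and a motif of the chosen lists are not reported here and were left out of the list counts and medians. Alternatives were other scalings, filters, prior counts and tools.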

Additional observations from a re-analysis of the deposited data

Results flagged for a closer look

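In 7 genes of the named-gene selection described with the processing, the siPPARG ratios of the lines lay on opposite sides of 1, each with a counting interval that excluded 1. The share of all kept genes that meet this rule was not computed. The check covered only that selection, and other genes met the rule too. Among them, GBP3 stood at 1.60 in OE33 and 0.836 in Eso26, and CDH1 at 1.12 in OE33 and 0.896 in Eso26. PSMB3 stood at 0.915 in OE33 and 1.08 in Eso26, and PSMB4 at 0.930 in OE33 and 1.09 in Eso26. Many named genes were picked for the largest folds of their list, which favours such intervals. The difference between the lines was not tested across cultures. B2M stood at 1.53 times the control in OE33 and 0.925 in Eso26. ERAP1 stood at 1.36 in OE33 and 0.820 in Eso26, IFNGR1 at 1.23 in OE33 and 0.787 in Eso26, IFNAR1 at 1.11 in OE33 and 0.866 in Eso26, and PSME3 at 1.15 in OE33 and 0.946 in Eso26. In the other direction, PSMD2 stood at 0.817 in OE33 and 1.05 in Eso26, and the keratin gene KRT19 at 0.939 in OE33 and 1.21 in Eso26. PPARG itself was at 0.136 times the control in OE33 and 0.843 in Eso26.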

How the results depend on the processing

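No paired analysis was possible because each group holds 1 library and no replicate numbers pair libraries within a line; the fit over both lines, which holds line as a term, sets siPPARG against control of the same line. No library could be left out of a comparison. Under other scalings, filters, prior counts and the choice of identifier, the numbers of the 10 genes higher, past 1.5-fold and past 2-fold moved by at most 1.5 times in each of the 3 comparisons. The median log2 difference between the controls, 1.03, was 0.931 with upper-quartile factors, which shift the median of all genes there by over 0.1 (to -0.0801, against 0.0284), and 1.13 with a filter of 10 CPM, which drops PSMB10. For treatment, genes called over both lines numbered 0 by edgeR's quasi-likelihood test, 12 by DESeq2, and 64 by edgeR without a filter beyond 1 count. In that unfiltered fit 1 of the 10 genes was called, PSMB9, with a log2 fold of 0.763 and an adjusted p of 0.0249 (0.588 to 0.765 under the other fits); the cause was not tested. In Eso26 genes past 2-fold numbered 6 higher and 15 lower, or 8 and 10 without a scaling factor, 66 and 38 at 1 CPM, 2 and 8 at 10 CPM and 711 and 334 with no filter. In OE33 they numbered 110 and 44, or 205 and 84 at 1 CPM and 546 and 584 with no filter, and between the controls 2407 and 1826, or 3846 and 3575 with no filter. In Eso26 the number of the 10 genes with a counting interval above 1 was 5, or 4 with RLE factors and 6 without a scaling factor, where the log2 fold of B2M was -0.0683 in place of -0.113. TMM over the other set of libraries, added after seeing the data, changed no count of the 10 genes. Depth limits NLRC5 and TAP2 in Eso26, whose ratio intervals, 0.911 to 1.53 and 0.896 to 1.24, are the widest of those that include 1.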

Other observations

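Genes of MHC class II, which presents peptides to CD4 T cells, had uneven counts in the 2 lines. CD74, the invariant chain gene that escorts class II molecules, had 804 counts in OE33 siPPARG and 524 in OE33 control, 1.43-fold higher (interval 1.28 to 1.60), against 6 in Eso26 siPPARG and 2 in Eso26 control. Between the controls CD74 was higher in OE33, at 31.6 CPM against 0.0862 in Eso26, and was kept through OE33 control alone. The ratio of 367 (interval 101 to 3040) rests on the 2 counts in Eso26 control, so its size is poorly fixed. HLA-DQB1 had 1 count in OE33 siPPARG and 4 in OE33 control, against 625 in Eso26 siPPARG and 528 in Eso26 control, and HLA-DRB1 had 2 in OE33 siPPARG and 4 in OE33 control, against 118 in Eso26 siPPARG and 72 in Eso26 control. The alpha chain genes that pair with these were nearly absent in Eso26, with 1 count of HLA-DRA in Eso26 siPPARG and 1 in Eso26 control, and 0 counts of HLA-DQA1 in both. The class II beta genes are polymorphic and resemble each other, and the labels do not describe the counting of reads they share, so these counts do not show class II molecules in Eso26. CIITA, the class II transactivator gene, had 24 counts in OE33 siPPARG and 11 in OE33 control, against 1 in Eso26 siPPARG and 2 in Eso26 control.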
